A study of Homo sapiens
Mus musculus with 8 samples.

Results

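The genes described here are 6 predicted genes and pseudogenes whose counts differed between kits for single-cell RNA sequencing: Gm6576, Gm8730, Gm10076, Gm10116 and Rpl7a-ps3 of the mouse and RPSAP58 of the human. They are 6 of the 60736 genes counted in these libraries, 27998 of them mouse and 32738 human. All 6 were selected on their kit differences in these same data, so those differences are given as a description, with no test. Tests are given for contrasts that the selection did not use. These are the difference between the mouse lines within a kit and the readout in cells of the other species. The line differences draw on the same counts as the kit differences, so they are not fully independent of the selection. In brief, Gm8730 and Gm6576 were far higher in the mouse line IVA12 than in EL4 with the 5′ v1 and 3′ v3 kits. Gm6576 differed less in the single library of the 3′ v2 kit. Gm10116 was higher in EL4. Gm10076 and Rpl7a-ps3 differed little between the lines while differing over 50-fold between the 5′ v1 and 3′ v3 kits. For Rpl7a-ps3 the 3′ v3 level rests on 2 to 17 molecules per library and line, and the lines could be tested in 5′ v1 only. For Gm10076 the lines differed by 0.34 on the log2 scale in 5′ v1, a call that some settings lost.

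Ribosomal proteins assemble with ribosomal RNA into the small and large subunits of the ribosome, and their messenger RNAs are among the most abundant of a growing lymphocyte. Reverse transcription of such messengers has left mammalian genomes with many processed pseudogenes, which are intron-less copies whose sequence can be nearly that of the parent gene. A short read from such a family may align as well to a copy as to the parent, and Cell Ranger, the program that made these counts, keeps only reads that align to a single gene with confidence. A read from the 3′ end of a messenger and one from its 5′ end cover different stretches, so which copies can be told apart may depend on the end that a kit reads. Symbols made of Gm and a number stand for mouse gene models without a proper name, and -ps and P in a symbol mark pseudogenes by name. In the current human RefSeq table (GRCh38.p14), RPSAP58 is a synonym of RPSA2, listed as protein coding, so the pseudogene label depends on the annotation.

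The study mixed equal parts of the mouse lines EL4 (CD4+ T cells) and IVA12 (B cells) and the human lines Jurkat (CD4+ T cells) and TALL-104 (CD8+ T cells), and made libraries with 3 Chromium kits of 10x Genomics. The libraries used were 1 of the 3′ v2 kit (replicate 2), 2 of the 5′ v1 kit and 4 of the 3′ v3 kit. The labels give no genotype, treatment or agent for any line, and by the study's methods TALL-104 was grown with interleukin-2. Each line is a single established cell line, so a difference between lines is a difference between these cultures.

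A barcode was used as a cell if it held at least 5000 unique molecular identifiers (UMIs, the tags that mark each captured molecule), over 80% of them from 1 species, and a mitochondrial share under 10%. Mouse cells were assigned to EL4 where Lgals1, S100a6 and Perp together had at least 5 times the UMIs of Epcam, Cd24a, Ctss and Ckap4, and to IVA12 in the reverse case. Human cells were assigned to Jurkat where NKG7, CST7 and CD8A together made up less than 0.02% of the UMIs. This gave 8324 EL4, 4722 IVA12 and 6938 Jurkat cells, from 24790710 to 251164949 UMIs per library. UMIs were summed per library and line, and levels are UMIs per 1e6 UMIs of the line's own species (CPM). One UMI stands for 1 end of 1 molecule, so levels are not scaled by gene length.

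The lineage genes separated the mouse lines as labelled, except that some defining B cell genes were near 0 in IVA12. Genes of the T cell receptor complex and its signalling (7 of 8 listed genes were in the reference) summed to between 2024 and 2856 CPM in EL4 and to between 4.26 and 45.2 CPM in IVA12. The B lineage list summed to between 339 and 627 CPM in IVA12, carried by Cd79b, Ms4a1 and Cd74, and to between 2.74 and 16.3 CPM in EL4. Cd79a, Pax5 and H2-Aa stayed under 1 CPM in IVA12 in all 7 libraries. In Jurkat the T lineage list summed to between 2576 and 3184 CPM and the cytotoxic list, which marks TALL-104, to between 22.3 and 66.4 CPM. The cytotoxic list includes NKG7, CST7 and CD8A, by which Jurkat was assigned, so its low level is partly set by the rule. TALL-104 cells were not analysed, so the human lines were not compared. Replicates 2 and 4 of 3′ v3 held only 115 and 319 Jurkat cells, with median mitochondrial shares of 8.96% and 8.64%. By the study's sample table the 2 libraries of 5′ v1 came from 1 cell mixture and those of 3′ v3 from 2 others (replicates 1 and 3, and replicates 2 and 4), so kit and cell mixture cannot be told apart, and p-values measure the spread between libraries that partly share their cells. Of the 21 pairs of libraries, 7 shared any cell barcode, at most 14.

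Rplp0 encodes the P0 protein of the ribosomal stalk, where elongation factors bind, and Gm8730 was set beside it from general knowledge after the values were seen. In IVA12, Gm8730 was counted at 6884 and 7754 CPM in the 5′ v1 libraries, at 3087, 2787, 2566 and 2748 CPM in 3′ v3 replicates 1 to 4, and at 2768 CPM in 3′ v2. In EL4 the same gene reached 70.5 and 73.4 CPM in 5′ v1, 102, 102, 177 and 207 CPM in 3′ v3 and 194 CPM in 3′ v2. The IVA12 level was thus above the EL4 level in every library, and the kits ranked in opposite order in the lines. The 5′ v1 libraries lay above those of 3′ v3 in IVA12, by 1.35 on the log2 scale, and below them in EL4, where the log2 difference was -0.95. In neither line did the libraries of these kits overlap, which held for every member in every line. Of the ribosomal protein genes set beside members, Rplp0 in both mouse lines, Rpl7a in IVA12 and RPSA in Jurkat did not overlap either. Rpl41 in both mouse lines and Rpl7a in EL4 did. The share of all genes without overlap was not counted, so nothing is read from the lack of it. For the setting, 17.6% of all mouse genes tested were called higher and 19.3% lower in 5′ v1 in EL4, and 4.8% and 4.41% in IVA12, and nothing is read from this for genes selected on the same contrast.

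The share of Gm8730 in the UMIs of Gm8730 and Rplp0 together also set the lines apart in every library. In IVA12 it was 57.7% and 58.3% in 5′ v1, 48.7%, 44.5%, 43.9% and 46.6% in 3′ v3 and 37.7% in 3′ v2. In EL4 it lay between 0.483% and 4.28% in the 7 libraries. The split held within single cells. Of the IVA12 cells with at least 20 UMIs of both genes, the middle 90% spanned 51.6% to 62.4% in 5′ v1 replicate 1 and 42.9% to 54.1% in 3′ v3 replicate 1, so the line was not a blend of cells with one gene and cells with the other.

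**Figure D1:**
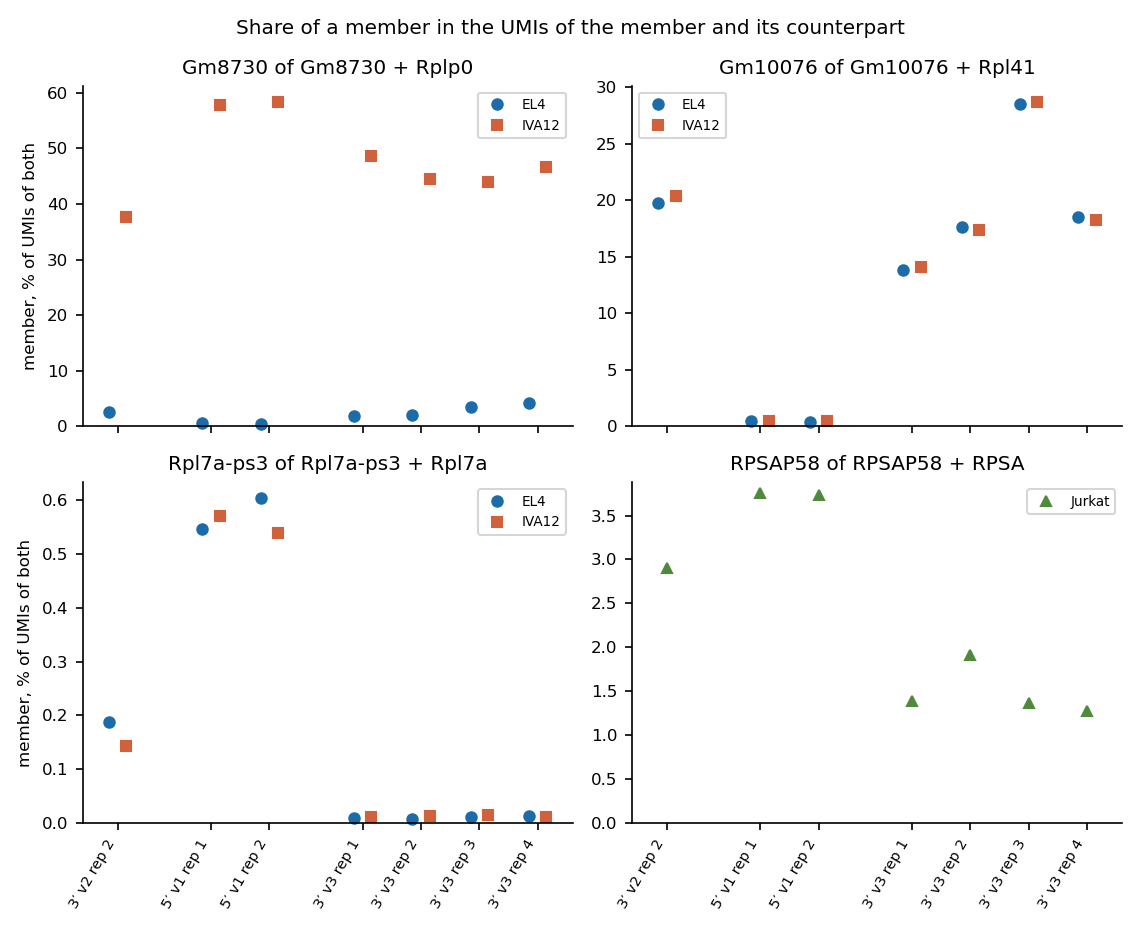
Share of each member in the UMIs of the member and its counterpart (vertical axis, percent, each panel with its own scale) in each library (horizontal axis), by line. Gm8730 held 37.7% to 58.3% in IVA12 against at most 4.28% in EL4, whereas Gm10076 followed the library and not the line.

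The line difference in Gm8730 was tested within each kit with edgeR's quasi-likelihood test, the library as a block and Benjamini-Hochberg adjustment over all mouse genes tested. EL4 minus IVA12 was -4.26 ± 0.22 (SE) on the log2 scale in 3′ v3 (adjusted p = 9.63e-07), lower in EL4 in 4 of 4 libraries. In 5′ v1 it was -6.45 ± 0.093 (SE), with an adjusted p that edgeR wrote as 0 and the same direction in 2 of 2 libraries. The corresponding folds of the mean CPM, IVA12 over EL4, were 19.1 and 101.7. Rplp0 went the other way, with EL4 above IVA12 by 0.61 ± 0.052 (SE) in 3′ v3 (edgeR adjusted p = 1.46e-05) and by 1.64 ± 0.076 (SE) in 5′ v1 (edgeR adjusted p = 3.49e-101). The 5′ v1 fit rests on 2 libraries of each line and 1 residual degree of freedom of its own, so its small p-values lean on the spread shared across genes.

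Summed into 1 gene, Gm8730 and Rplp0 differed less between the lines than either gene alone. The sum was 13275 and 15202 CPM in EL4 against 11923 and 13299 CPM in IVA12 in 5′ v1, and 4834 to 5178 CPM in EL4 against 5840 to 6338 CPM in IVA12 in 3′ v3. The line difference of the sum was 0.39 in 5′ v1 (edgeR adjusted p = 3.15e-07) and -0.23 in 3′ v3 (edgeR adjusted p = 0.00225) on the log2 scale, so that in 5′ v1 it turned against the direction of Gm8730 alone. The kit difference of the sum was positive in both lines, at 1.58 in EL4 and 1.02 in IVA12. In EL4 Rplp0 held most of the sum and differed by 1.62 alone.

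The EL4 level of Gm8730 was partly held by few cells. In 3′ v3 replicate 4 the richest 1% of EL4 cells held 50.1% of its UMIs, against 2.3% in IVA12 of the same library, and in 5′ v1 replicate 1 they held 36.7%. In the median EL4 cell it had between 1 and 5 UMIs by library. B lineage genes moved with it in 3′ v3: the list summed in EL4 to 7.35 and 7.07 CPM in replicates 1 and 2 and to 16.3 and 13.3 CPM in replicates 3 and 4, where Gm8730 was also higher. As a percentage of the IVA12 level, EL4 held 1.02% and 0.947% of Gm8730 and 0.869% and 0.829% of the B lineage list in 5′ v1, 3.29% to 7.53% and 1.17% to 3.19% in 3′ v3, and 7.03% and 0.807% in 3′ v2. The part of these cells in the EL4 level was not tested. With cells of at most 100000 UMIs the kit difference in EL4 was -0.76, and with a mitochondrial share under 5% it was -2.03.

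**Figure D2:**
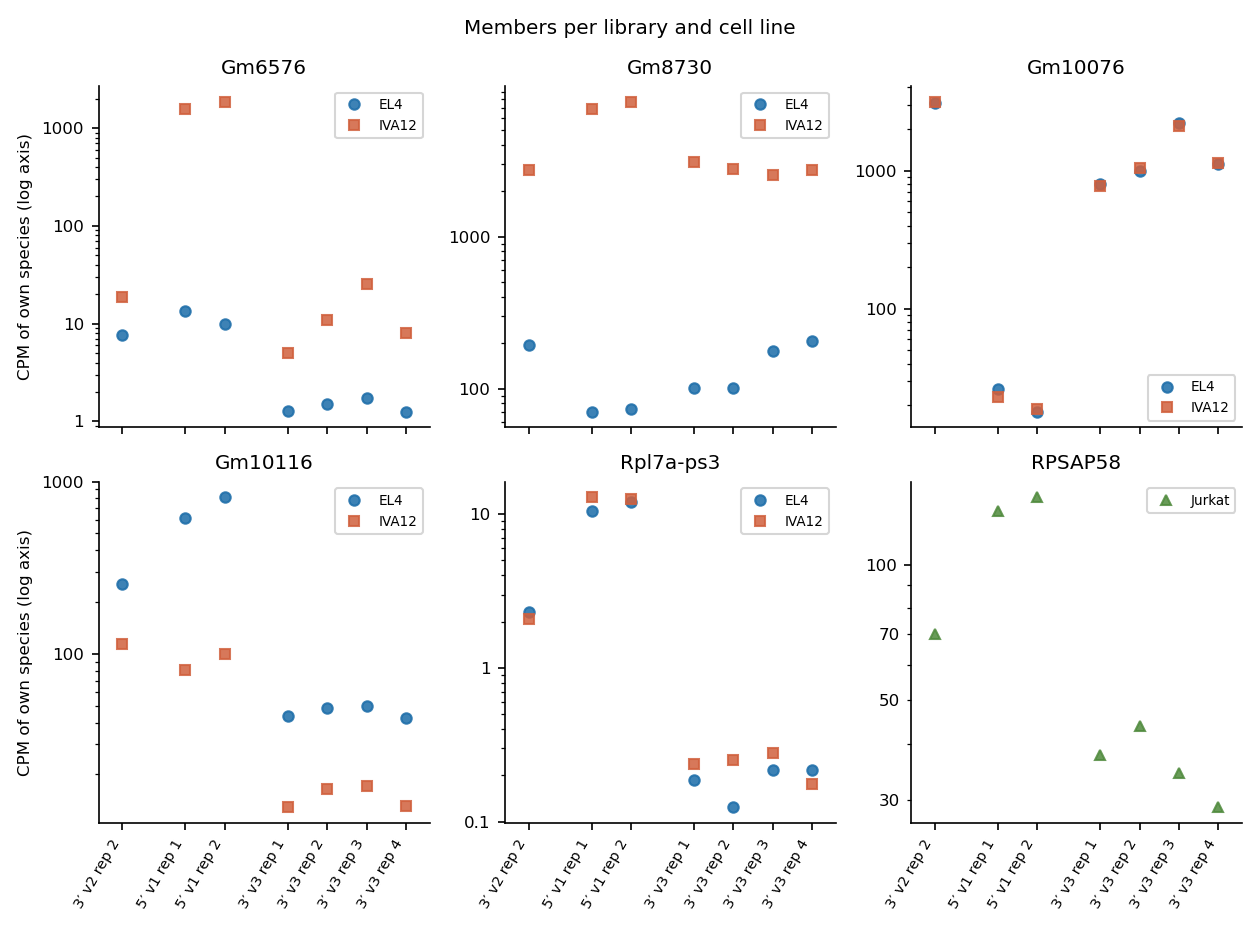
Level of each member (CPM of the own species, log axis, each panel with its own scale) in the 7 libraries, by line, 1 point per library and line. The 5′ v1 libraries stand apart from the 3′ v3 libraries in every panel, a contrast on which the members were selected. Gm6576 in IVA12 rises from at most 25.5 CPM to at least 1586 CPM.

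Gm6576 had the widest range of the members. In IVA12 it stood at 1586 and 1873 CPM in 5′ v1, at 5.01, 10.8, 25.5 and 8.06 CPM in 3′ v3 replicates 1 to 4 and at 18.7 CPM in 3′ v2. In EL4 it stood at 13.3 and 9.80 CPM in 5′ v1, at 1.25 to 1.74 CPM in 3′ v3 and at 7.69 CPM in 3′ v2. It was thus an abundant gene in 1 line with 1 kit and scarce elsewhere. The kit difference was 7.05 on the log2 scale in IVA12 and 3.05 in EL4, a 140-fold and an 8.04-fold ratio of mean CPM. Without 3′ v3 replicate 3 it was 7.80 in IVA12, and with a mitochondrial share under 5% it was 2.44 in EL4.

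Single cells showed the same for Gm6576. After thinning each cell to 5000 UMIs, 99.9% and 100% of IVA12 cells had a UMI of Gm6576 in 5′ v1, against 1.89% to 11.6% in 3′ v3. Without thinning the shares in IVA12 were 100% and 100%, and 16.4% to 56.3%. EL4 cells reached 3.89% and 2.85% in 5′ v1 when thinned, and Jurkat cells, which cannot make a mouse transcript, 0.546% and 0.168%. The richest 1% of EL4 cells held 51.6% and 36.4% of the Gm6576 UMIs of EL4 in 5′ v1. EL4 held 0.84% and 0.523% of the IVA12 level of Gm6576 in 5′ v1, a proportion near that of the B lineage list given above, 6.81% to 25.2% in 3′ v3 and 41.2% in 3′ v2 (7.69 against 18.7 CPM).

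Gm6576 was lower in EL4 than in IVA12 with both kits by edgeR's quasi-likelihood test. The difference was -2.94 ± 0.29 (SE) in 3′ v3 (adjusted p = 3.25e-05, lower in 4 of 4 libraries) and -6.96 ± 0.099 (SE) in 5′ v1 (adjusted p written as 0, lower in 2 of 2 libraries). In CPM the folds, IVA12 over EL4, were 8.59 and 149.6. Replicate 3 of 3′ v3 had the highest IVA12 level, at 25.5 CPM against 10.8 CPM in the next. That library also held the most UMIs in total, and its human cells carried the most mouse RNA. Per cell it was not the deepest, with a median of 33771 UMIs in IVA12 against 35447 in replicate 1. The part of the library total or of the carried mouse RNA in this level was not tested.

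Gm10116 was the member that stood higher in EL4. Its EL4 level was 617 and 813 CPM in 5′ v1, 43.8, 48.8, 49.8 and 42.7 CPM in 3′ v3 and 254 CPM in 3′ v2. The IVA12 level was 80.2 and 99.7 CPM in 5′ v1, 12.9, 16.4, 17.2 and 13.0 CPM in 3′ v3 and 114 CPM in 3′ v2. Both lines therefore had 5′ v1 above 3′ v3, by 4.01 on the log2 scale in EL4 and 2.56 in IVA12. In IVA12 the 3′ v2 library was the highest of all. No counterpart was assigned to Gm10116 or Gm6576.

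The line difference of Gm10116 was 1.71 ± 0.074 (SE) in 3′ v3 (edgeR adjusted p = 4.02e-07, higher in EL4 in 4 of 4 libraries) and 3.20 ± 0.079 (SE) in 5′ v1 (edgeR adjusted p written as 0, higher in 2 of 2). EL4 over IVA12 was 3.11-fold and 7.95-fold in mean CPM. Relative to EL4, IVA12 held 12.3% to 13.0% of the EL4 level of Gm10116 in 5′ v1 and 29.4% to 34.4% in 3′ v3, against 0.156% to 1.97% of the T lineage list in the same 6 libraries. When cells were thinned to 5000 UMIs, 89.6% and 94.0% of EL4 cells and 27.7% and 40.3% of IVA12 cells had a UMI of it in 5′ v1, against 0.39% and 0.84% of Jurkat cells. Unthinned, these shares were 99.0% and 99.7% in EL4, 76.5% and 83.4% in IVA12 and 2.26% and 1.85% in Jurkat.

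Gm10076 was the only one of the 5 mouse members below 3′ v3 in 5′ v1 in both lines. It was set beside Rpl41, which encodes the smallest protein of the large subunit, by general knowledge after the values were seen. In EL4 its level was 26.5 and 18.0 CPM in 5′ v1, 802, 996, 2217 and 1113 CPM in 3′ v3 and 3102 CPM in 3′ v2. In IVA12 it was 22.9 and 18.8 CPM in 5′ v1, 779, 1052, 2100 and 1141 CPM in 3′ v3 and 3159 CPM in 3′ v2. The lines tracked each other library by library, also in replicate 3 of 3′ v3, where both had their highest 3′ v3 level. The kit difference was -5.81 in EL4 and -5.97 in IVA12 on the log2 scale, and mean CPM in 3′ v3 was 57.6-fold and 60.7-fold that in 5′ v1.

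Of the UMIs of Gm10076 and Rpl41 together, Gm10076 held 13.9% to 28.5% in EL4 and 14.1% to 28.7% in IVA12 in 3′ v3, 19.7% and 20.4% in 3′ v2, and at most 0.474% in 5′ v1. Rpl41 itself stayed between 4651 and 5565 CPM in EL4 in 5′ v1 and 3′ v3. It reached 12623 CPM in the 3′ v2 library, so both genes were highest with 3′ v2. The line difference of Gm10076 did not pass the threshold in 3′ v3, at 0.061 ± 0.056 (SE) on the log2 scale (edgeR adjusted p = 0.348, higher in EL4 in 2 of 4 libraries). In 5′ v1 it was 0.34 ± 0.089 (SE) (edgeR adjusted p = 0.000197), although CPM was higher in EL4 in only 1 of 2 libraries. That call was lost with DESeq2 (0.31, adjusted p = 0.0620), without the library block (0.32, edgeR adjusted p = 0.162) and with thinned cells (0.28, edgeR adjusted p = 0.106), where the difference stayed near its size. It was also lost with library totals in place of TMM factors, where the difference fell to 0.12 (edgeR adjusted p = 0.167). Rpl41 differed by 0.38 in the same 5′ v1 fit (edgeR adjusted p = 2.71e-07).

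Rpl7a-ps3 carries the name of Rpl7a, a protein of the large subunit. It was close to absent in 3′ v3, with 2 to 17 UMIs per library in EL4 and 3 to 15 in IVA12, or 0.124 to 0.218 CPM and 0.176 to 0.281 CPM. In 5′ v1 it reached 10.5 and 12.0 CPM in EL4 and 12.9 and 12.5 CPM in IVA12, and in 3′ v2 2.31 and 2.07 CPM. The kit difference was 5.83 in EL4 and 5.62 in IVA12 on the log2 scale, and the gene passed the filter on low counts only through the 5′ v1 libraries. Rpl7a lay between 1724 and 2311 CPM in both lines with these kits, and the member held at most 0.603% of their joint UMIs.

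Rpl7a-ps3 was too scarce in 3′ v3 to be tested between lines. In 5′ v1 the line difference was 0.018 ± 0.11 (SE) with TMM factors (edgeR adjusted p = 0.885) and turned to -0.21 with library totals (edgeR adjusted p = 0.0619). Library totals moved every member's 5′ v1 line difference down by 0.21 to 0.23 and those of 3′ v3 by 0.052 to 0.061, so line differences of that size depend on the scaling.

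**Figure D3:**
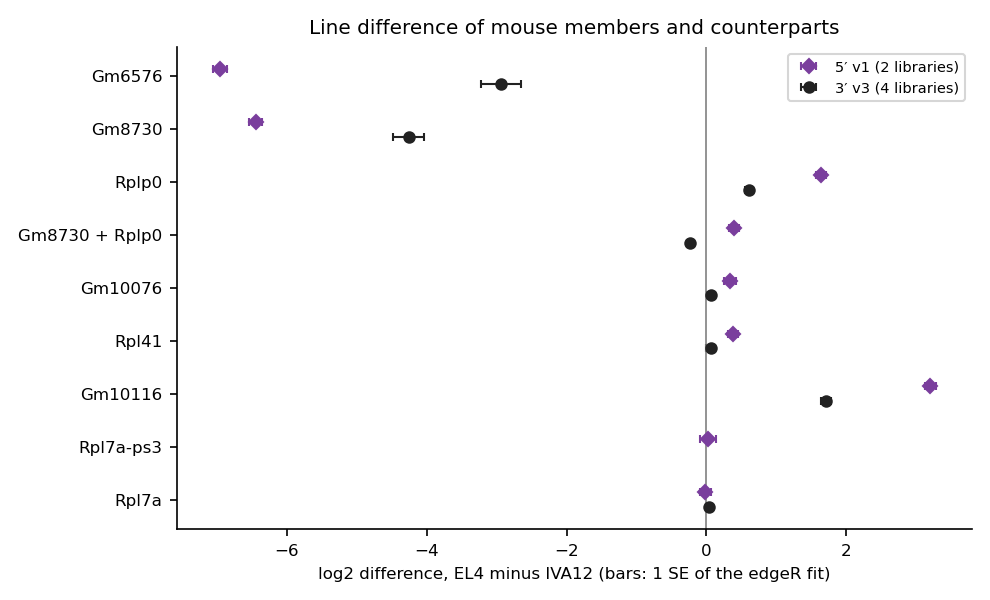
Log2 difference between EL4 and IVA12 (horizontal axis, EL4 minus IVA12) for the mouse members, their counterparts and the sum of Gm8730 and Rplp0, by kit, with bars of 1 SE of the edgeR fit. Gm6576 and Gm8730 lie between -6.96 and -2.94, Gm10116 at 1.71 and 3.20, and the sum of Gm8730 and Rplp0 at -0.23 and 0.39, while Rpl7a-ps3 was tested in 5′ v1 only.

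In 3′ v3, 3 of the 4 mouse members tested were called between the lines, 1 higher in EL4 and 2 higher in IVA12. Of all 12325 mouse genes tested, 40% were called higher in EL4 and 39.1% higher in IVA12, so being called was common. In 5′ v1 all 5 were tested and 4 were called, 2 in each direction, against 42.2% and 42.8% of 12232 genes. By the size of the difference in 3′ v3, Gm8730 ranked 1606 of 12325 genes, Gm6576 2242 and Gm10116 3265. Among the other mouse symbols of predicted genes and pseudogenes, 402 of 598 were called in 3′ v3, and 123 had a difference over 16-fold.

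RPSAP58 was the human member, named after RPSA, a protein of the small subunit also known as the laminin receptor. In Jurkat it was counted at 131 and 141 CPM in 5′ v1, at 37.8, 43.9, 34.4 and 28.9 CPM in 3′ v3 and at 70.1 CPM in 3′ v2. The 5′ v1 libraries were the highest, with a log2 difference to 3′ v3 of 1.94 and a 3.76-fold ratio of mean CPM. RPSA was at 3369 and 3639 CPM in 5′ v1 and 2243 to 2681 CPM in 3′ v3, a log2 difference of 0.56 ± 0.27 (SE) that did not pass the threshold (edgeR adjusted p = 0.189). RPSAP58 held 3.75% and 3.73% of their joint UMIs in 5′ v1, 1.27% to 1.92% in 3′ v3 and 2.90% in 3′ v2.

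In cells thinned to 5000 UMIs, 47.5% and 52.1% of Jurkat cells had a UMI of RPSAP58 in 5′ v1 and 15.0% to 20.9% in 3′ v3. Unthinned, the shares were 86.2% and 88.1%, and 27.3% to 51.3%. EL4 cells, which lack the gene, had one in at most 0.781% of cells per library when thinned. The 3′ v3 libraries with few Jurkat cells, replicates 2 and 4, gave 62 and 110 UMIs of it, so their values are the least precise.

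The ribosomal protein genes of the same lines gave the setting for these kit differences and were tested, since the selection did not use them. In EL4, 18 of 79 were called higher in 5′ v1 than in 3′ v3 and 11 lower, against the 17.6% and 19.3% of all mouse genes given above. In IVA12, 4 were called higher and 10 lower, against 4.8% and 4.41%. In Jurkat, 1 of 79 was called higher and 11 lower, against 7.9% and 7.75% of human genes. These splits did not hold their direction. In EL4 lower calls outnumbered higher ones without a filter on low counts (6 higher, 10 lower), without 3′ v3 replicate 2 (8 and 11) or 4 (7 and 12) and without 5′ v1 replicate 1 (3 and 5). With only the mixture of 3′ v3 replicates 2 and 4, higher calls outnumbered lower ones in IVA12 (41 and 27) and Jurkat (33 and 20). In that setting 7723 of 11472 genes were called in IVA12 and 8139 of 12445 in Jurkat, in either direction. With library totals the splits became 9 higher and 11 lower in IVA12 and 4 higher and 13 lower in Jurkat, where 1207 of 11954 and 1754 of 13909 genes were called. The median log2 difference of the list was 0.25 in EL4, -0.0052 in IVA12 and 0.048 in Jurkat, against -0.052, -0.023 and -0.025 for all genes tested.

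The largest differences of the list were smaller than those of most mouse members. Nothing is read from that order, since the members were selected on this contrast. Rps29, a small-subunit protein, was the lowest in both mouse lines, at -2.96 ± 0.47 (SE) in EL4 (edgeR adjusted p = 0.00353) and -2.79 ± 0.32 (SE) in IVA12 (edgeR adjusted p = 0.00553). Its human form RPS29 was the lowest in Jurkat, at -2.90 ± 0.33 (SE) (edgeR adjusted p = 0.00299). Rpl38 (-2.39 in EL4 and -2.29 in IVA12) and Rps21 (-1.65 and -1.45) followed in mouse, and RPL23 (-1.74) and RPS27 (-1.72) in Jurkat. On the higher side stood Rpl15 (2.26), Rplp0 (1.62) and Rpl29 (1.41) in EL4, and Rpl29 (2.80), Rpl15 (1.97) and Rps2 (0.93) in IVA12. RPLP0, the human P0 gene, was the single gene called higher in Jurkat, at 1.63 ± 0.20 (SE) (edgeR adjusted p = 0.00337).

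Of the 4 counterparts, Rplp0 alone was called between kits. Its level in EL4 was 13204 and 15128 CPM in 5′ v1 against 4627 to 5076 CPM in 3′ v3 (edgeR adjusted p = 0.00183), and in IVA12 5039 and 5545 CPM against 3151 to 3475 CPM, a log2 difference of 0.66 ± 0.15 (SE) (edgeR adjusted p = 0.0450). Rpl7a and Rpl41 did not pass in either line, at 0.10 ± 0.22 (SE) and 0.089 ± 0.25 (SE) in EL4 and 0.21 ± 0.20 (SE) and -0.17 ± 0.16 (SE) in IVA12. The members set beside them, selected on this contrast, differed by 5.62 to 5.83 in the case of Rpl7a-ps3 and by -5.97 to -5.81 in that of Gm10076. The ribosomal list as a whole made up 34.9% and 34.5% of EL4 UMIs in 5′ v1, 27.4% to 31.6% in 3′ v3 and 39.0% in 3′ v2. In the other lines these kits overlapped, with 27.6% and 27.4% against 25.5% to 27.8% in IVA12 and 23.4% and 23.2% against 22.4% to 24.9% in Jurkat.

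**Figure D4:**
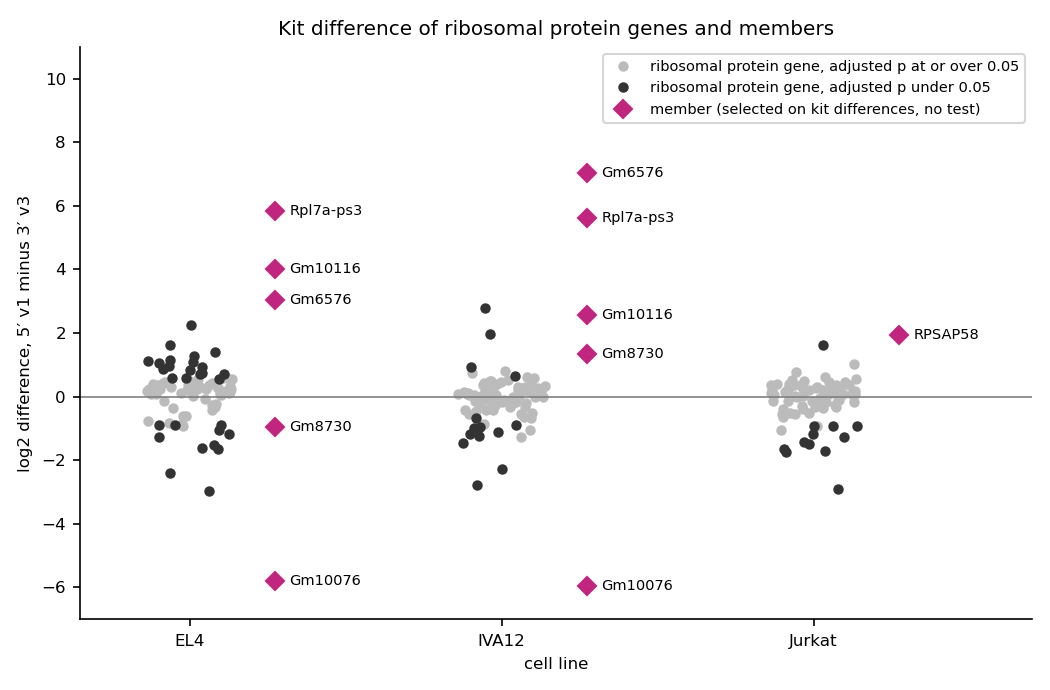
Log2 difference between the kits (vertical axis, 5′ v1 minus 3′ v3) of the 79 ribosomal protein genes per line (points, spread sideways at random, dark where the edgeR adjusted p is under 0.05) and of the members (diamonds, no test). The ribosomal protein genes lie between -2.96 and 2.80, and Gm6576, Rpl7a-ps3 and Gm10076 lie outside that range in both mouse lines. The members were selected on this contrast, so nothing is read from their place.

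The last readout asked whether a member was counted in cells of the other species beyond the level of all genes. Reads that align equally well to both genomes are not counted by Cell Ranger and would not show in it. For each library, the UMIs per cell in cells of the other species were divided by those in cells of its own species, and the same ratio over all genes of that species was subtracted on the log2 scale. All mouse genes together reached 0.339% to 2.39% of their own level in human cells, and all human genes 0.0418% to 4.63% in mouse cells. The highest human value, in 3′ v3 replicate 4, was 1.96% with cells of at most 100000 UMIs and 0.901% with over 95% of UMIs from 1 species, and the averages of RPSAP58 given next became 0.45 and 0.79 in these settings, with no member passing. An exact two-sided sign-flip test over 7 libraries, which cannot give a p below 0.0156, was adjusted over the 6 members. A member alone at that smallest p has an adjusted p of 0.0938, so no member could pass by itself, and that none of 6 passed says little. There was 1 member with an unadjusted p under 0.05.

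That member was Gm10076, whose log2 ratio averaged -0.61 ± 0.40 (SD, n = 7), below all genes in 7 of 7 libraries (exact p = 0.0156, adjusted p = 0.0938). Its counterpart Rpl41 was below all genes in 7 of 7 libraries as well (-1.82 to -0.17), and against the ribosomal protein list in place of all genes the average of Gm10076 was -0.12 (exact adjusted p = 0.431). Gm8730 averaged -0.21 ± 1.00 (SD, n = 7) and Gm10116 -0.17 ± 1.07 (SD, n = 7). Gm6576 averaged 0.55 ± 2.28 (SD, n = 7) and RPSAP58 0.55 ± 1.13 (SD, n = 7), above all genes in 4 and 5 of 7 libraries. In the 5′ v1 libraries, the log2 ratio was below 0 for every member and for the 4 counterparts. The ribosomal protein lists of both species also lay below all genes there, so this was not particular to the members. Rpl7a-ps3 had at most 2 UMIs in human cells of any library, so that its mean of 2.46 ± 2.94 (SD, n = 7) rests on the 0.5 UMI added to each sum. With 1 UMI added, Gm10076 (-0.40) and Rpl7a-ps3 (3.23) passed, both with an exact adjusted p of 0.0469, since 2 members were then at the smallest p.

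**Figure D5:**
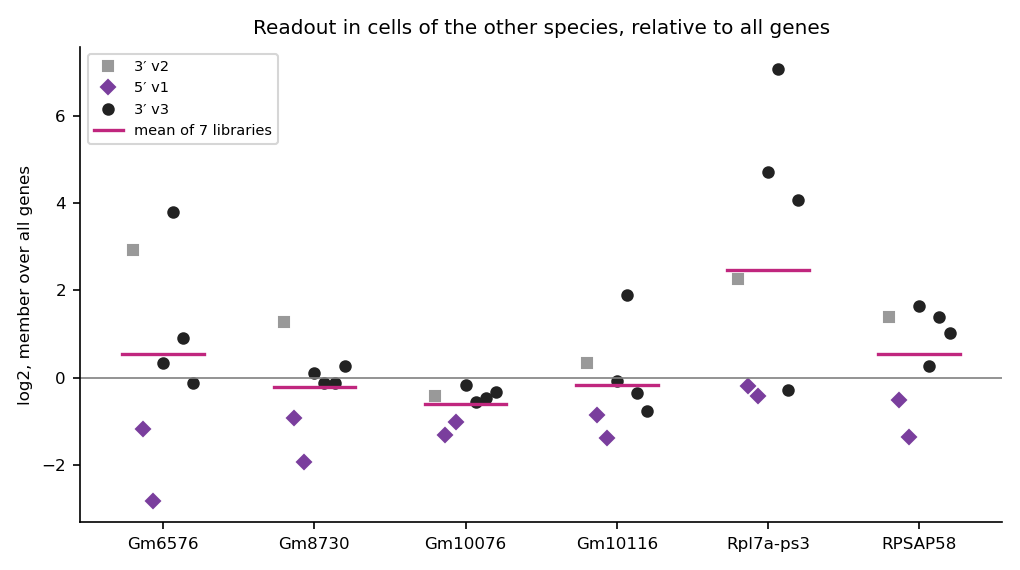
Readout of each member in cells of the other species relative to all genes of its species (vertical axis, log2, 0 where the member behaves as all genes), 1 point per library, marked by kit, with a line at the mean of 7 libraries. The 5′ v1 libraries lie below 0 for all 6 members, as they do for the counterparts and the ribosomal protein lists (not drawn). The points of Rpl7a-ps3 above 4 come from libraries with at most 2 UMIs in human cells.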

How the data were processed

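The authors first reduced the reads of the libraries with seqtk, then ran Cell Ranger 3.0.2 (with STAR) against the combined hg19 and mm10 reference package of 10x Genomics (version 1.2.0), and deposited raw UMI counts per gene and barcode, with no normalization and no cell calling. All barcodes were read here, and samples were grouped by the kit in their titles. The other 3′ v2 library was not analysed here. The members and gene lists were chosen with earlier results of these data known. No annotation or sequence of the mouse genome was used, so no positions or sequences are given. Cells were named by the rule in the report, not by the study's own signatures, so cell sets may differ from those of the study. No doublet caller was run. Barcodes over 20% from the other species were dropped, and cells over 100000 UMIs were left out in an alternative.

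Total counts per library ranged from 24790710 to 251164949 UMIs, and intervals for single shares were not used since libraries were the replicates. Summed counts were fitted in edgeR 4.0.16 (R 4.3.3) with filterByExpr, TMM factors and the quasi-likelihood test, with Benjamini-Hochberg adjustment over all genes of the species and a threshold of 0.05. Kit fits compared 2 libraries of 5′ v1 with 4 of 3′ v3 per line, and the single 3′ v2 library entered no fit. Line fits compared EL4 and IVA12 within a kit with the library as a block. The SE given with an edgeR difference is its absolute size divided by the square root of the test's F statistic. DESeq2 1.42.0, other scalings, filters, cell limits, thinning to 5000 UMIs and leaving out libraries were alternatives. Replicates were numbered by accession, which pairs no libraries. On simulated data the EL4 kit fit and both line fits recovered 96% to 100% of genes changed 2-fold or 4-fold. They called 5 to 10 unchanged genes per fit, and the other kit fits were not simulated. The simulation gave every gene the same small spread between independent libraries, without cell mixtures, and changed only well-counted genes. The real libraries share cell mixtures and their genes differ in spread, so these rates need not hold for them. The text names all 6 members, 4 counterparts (Rpl7a and RPSA by symbol, Rplp0 and Rpl41 after values were seen), the 3 called ribosomal protein genes with the largest difference in each direction, and the 3 genes most like each member.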

Additional observations from a re-analysis of the deposited data

Results flagged for a closer look

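The kit difference of Gm8730 ran in opposite directions in the mouse lines. On the log2 scale, 5′ v1 minus 3′ v3 was -0.95 in EL4 and 1.35 in IVA12. In each line every 5′ v1 library lay on one side of every 3′ v3 library. That separation was what the flag required, looked for in the 5 mouse members. Its share over all genes was not counted, so nothing is read from it. The difference between the lines was not tested, since the gene was selected on the kit difference. For 18 groups of 4 3′ v3 libraries, made of each member or counterpart in each line, no library stood apart from the others by Dixon's criterion, which flags about 1 group in 20 by chance.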

How the results depend on the processing

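The 29 ribosomal protein genes called between kits in EL4 became 16 without a filter on low counts and 70 with replicates 2 and 4 as the only 3′ v3 libraries. The 14 in IVA12 became 22 with DESeq2, 49 with replicates 1 and 3 only and 68 with replicates 2 and 4 only, and the 12 in Jurkat became 7 without a filter, 32 and 53. Calls over all genes moved too. In the main fits they were 4467 of 12103 in EL4, 1101 of 11954 in IVA12 and 2177 of 13909 in Jurkat. With replicates 2 and 4 only they were 8120 of 11547, 7723 of 11472 and 8139 of 12445. With replicates 1 and 3 only they were 6956 of 11615 in IVA12 and 8184 of 13700 in Jurkat. Without a filter they were 4224 of 18108 in EL4 and 2169 of 21872 in Jurkat, and with DESeq2 1907 of 11954 in IVA12. Leaving out 1 library at a time gave 5 to 32 in EL4, 0 to 12 in IVA12 and 0 to 13 in Jurkat. The lowest counts came without a 5′ v1 library, which leaves 1 library in that group, and calls over all genes fell there too. The reason was not tested. In EL4, 8 and 5 genes were called without 5′ v1 replicates 1 and 2, and 19 without 3′ v3 replicate 2 or 4. In IVA12 these were 0, 0, 9 and 9, and 16 and 14 genes had an unadjusted edgeR p under 0.05 without 5′ v1 replicates 1 and 2. In Jurkat 0 and 0 were called without them (13 and 9 at an unadjusted edgeR p under 0.05), and 7 without 3′ v3 replicate 2. Nor was the cause tested for the other settings. Restricted to a single 3′ v3 mixture, the spread is that of 2 libraries of the same cells.

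Of the member differences, the kit difference of Gm8730 in EL4 turned to 1.58 and its 5′ v1 line difference to 0.39 when it was summed with Rplp0. Summed with its counterpart, the kit difference of Gm10076 shrank to -0.24 in EL4 and -0.49 in IVA12. That of Rpl7a-ps3 shrank to 0.11 and 0.21, and that of RPSAP58 in Jurkat to 0.60. The sums with Rpl7a-ps3, with RPSAP58 and, in EL4, with Gm8730 mostly repeat the counterpart. These members held at most 0.603%, 3.75% and 4.28% of the joint UMIs. Alone, Rpl7a differed between kits by 0.10 in EL4 and 0.21 in IVA12, RPSA by 0.56 and Rplp0 in EL4 by 1.62. The 5′ v1 line difference of Rpl7a-ps3 turned to -0.21 with library totals. Summed with Rpl7a it was -0.014, as for Rpl7a alone. In the other-species readout Gm8730 became 0.28 and Gm10116 0.32 with the ribosomal protein list as the reference. Leaving out 1 library gave -0.46 to 0.074 and -0.52 to 0.026, above 0 only without 5′ v1 replicate 2. With 1 UMI added, 2 members passed. Libraries of different kits could not be paired, since replicates were numbered by accession. The lines were paired by library in a block, and removing it ended the 5′ v1 call of Gm10076 alone among the members. A line fit with 1 library of 5′ v1 was not run, since it has no residual degrees of freedom. The line calls of Gm6576, Gm8730 and Gm10116 held under the scaling, filter, cell and library settings run. Alternatives that cap cells at 100000 UMIs or sum a member with its counterpart were chosen after seeing the data. In Jurkat, RPSAP58 had only 62 and 110 UMIs in 3′ v3 replicates 2 and 4, from 115 and 319 cells.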

Other observations

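Over libraries and mouse lines (14 points that share 7 libraries, levels centred within each line), the genes most like each member were described by Pearson's r of log2 CPM, among 7360 genes of at least 10 CPM on average (7361 for Rpl7a-ps3). They were Hmga1 (0.95), Lamtor3 (0.94) and Chmp1a (0.94) for Gm6576, and Cd24a (0.90), Creld2 (0.88) and Egfl7 (0.85) for Gm8730. Cd24a, a surface glycoprotein, is itself one of the genes that assigned cells to IVA12. For Gm10076 they were Nop58 (0.98), of small nucleolar ribonucleoproteins, Sec62 (0.98), of protein translocation into the endoplasmic reticulum, and Hist1h2ap (0.98), a histone. Nop58 stood at 143 and 170 CPM in EL4 and IVA12 in 5′ v1 on average, and at 368 and 452 CPM in 3′ v3. For Gm10116 they were Gng5 (0.99), Desi1 (0.98) and Rpl10-ps3 (0.96), and for Rpl7a-ps3 Ccdc85b (0.99), Prelid1 (0.99) and Mrpl30 (0.98). Over 7 libraries of Jurkat, RPSAP58 was most like MOSPD3 (0.995), RPL14 (0.99) and BDH1 (0.99) among 8294 genes. Each r is among the highest of all genes compared. Centring within lines also leaves in the kit contrast on which the members were selected, so nothing is read from the size of r.

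Other predicted genes and pseudogenes of the mouse also differed between kits. Of 685 tested in EL4, 175 were called higher and 114 lower in 5′ v1, and of 603 tested in IVA12, 79 and 59 (edgeR's quasi-likelihood test). Over all mouse genes tested, 17.6% were called higher and 19.3% lower in EL4 and 4.8% and 4.41% in IVA12. Most of the 5683 such symbols in the reference had too few UMIs to be tested. Of 5 human symbols of ribosomal protein pseudogenes tested in Jurkat, 1 was called, higher in 5′ v1, against 7.9% higher and 7.75% lower of all human genes. Between the lines, 185 were called higher in EL4 and 217 higher in IVA12 of 598 tested in 3′ v3, and 236 and 197 of 552 in 5′ v1, against 40% and 39.1% of all mouse genes in 3′ v3 and 42.2% and 42.8% in 5′ v1.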
